A study of Mus musculus with 18 samples.

Results

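The genes described here are the well-counted Zfp genes, those whose symbol is Zfp followed by digits only and whose raw read count averaged at least 300 over 6 RNA-Seq libraries. They numbered 201 of the 344 Zfp genes and of the 34620 genes listed in the count files. The members were thus selected on their mean count, which is given as a description. The lowest mean counts among them were 306.7 for Zfp446 and 308.7 for Zfp112, and the Zfp genes just under the limit were Zfp703 with 299.3 and Zfp958 with 297.8. Zfp446 passed the test described below, and its membership rested on a margin of a few counts.

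The libraries came from the ventral dentate gyrus of adult male Swiss Webster mice aged 8 to 12 weeks, an outbred strain, with 2 libraries each from the WT, F1 and F2 groups. All these males carried the wild-type serotonin 1A receptor gene. F1 males were wild-type sons of mothers heterozygous for the inactivated receptor gene, bred in crosses of heterozygous mice so that their fathers carried it as well, F2 males had an F1 mother and a WT father, and the WT group descended from its own wild-type lineage, kept alongside. The comparison therefore asks whether expression differed in males whose mother or grandmother carried an inactivated copy, and maternal genotype, lineage and, in F1, the father's genotype cannot be told apart in it. The sources name at least a few litters per group but not the number of animals in a library, so the spread between libraries may be partly technical. The granule cell layer was cut from frozen brain sections, and in such bulk samples fewer cells of a type and less RNA per cell cannot be told apart.

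Zfp symbols mark proteins with zinc fingers, most of them of the C2H2 kind, in which a pair of cysteines and a pair of histidines hold a zinc ion and neighbouring residues contact DNA. Many of these proteins also carry a KRAB domain, which binds the corepressor Trim28 and through it the histone methyltransferase Setdb1, and they are best known for silencing transposable elements and imprinted regions. Others have no KRAB domain and act as activators, in ubiquitin transfer or on RNA. In the dentate gyrus, which keeps forming granule neurons in adult life, zinc finger proteins are known as regulators of neuronal differentiation.

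The coding sequences of the first or second finger of 7 members are printed here as examples. Zfp949, Zfp692, Zfp58, Zfp57 and Zfp598 fell, Zfp871 rose, and Zfp238 had the highest count. Zfp772, which fell more than Zfp58, Zfp57 and Zfp598, is not printed. Positions are in mm9 and each sequence is written 5′ to 3′ on the gene's strand. Capitals mark the codons of the zinc-holding cysteines and histidines.
Zfp949 (chr9:88464108-88464170, plus strand): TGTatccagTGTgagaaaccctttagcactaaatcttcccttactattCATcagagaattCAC
Zfp692 (chr11:58125000-58125068, plus strand): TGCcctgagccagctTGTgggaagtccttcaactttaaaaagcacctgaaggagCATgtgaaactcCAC
Zfp58 (chr13:67592923-67592985, minus strand): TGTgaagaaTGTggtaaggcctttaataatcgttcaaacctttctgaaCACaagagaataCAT
Zfp57 (chr17:37146624-37146686, plus strand): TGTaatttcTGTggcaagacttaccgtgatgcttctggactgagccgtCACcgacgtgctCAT
Zfp598 (chr17:24814454-24814519, plus strand): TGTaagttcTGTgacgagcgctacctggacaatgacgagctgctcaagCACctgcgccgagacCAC
Zfp871 (chr17:32912500-32912562, minus strand): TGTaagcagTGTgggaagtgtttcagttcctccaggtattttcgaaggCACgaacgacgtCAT
Zfp238 (chr1:179378347-179378409, plus strand): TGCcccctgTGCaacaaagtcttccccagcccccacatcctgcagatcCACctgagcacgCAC
In all 7, 12 codons separate the second cysteine from the first histidine, a spacing that the search for fingers required. The fingers of Zfp692 and Zfp598 differ from the others in the spacing within a pair of like residues.

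The reads counted on genes ranged from 26358165 to 33727936 per library, and between 35.3% and 46.6% of the reads in the count files fell on no single gene. Levels are given as CPM, the read count of a gene scaled to a common library total after TMM normalization. Markers of granule cells were present in every library, at a summed level of 1531 and 1582 CPM in WT, 1276 and 1590 in F1 and 1967 and 1725 in F2, and 1 of the 10, Plk5, fell in F1 and F2 together (−0.54, q = 4.85e-05). Glial and endothelial markers differed between the groups. In F1 and F2 together, 3 of 8 oligodendrocyte and 5 of 6 astrocyte genes passed the test as higher. So did 3 of 6 microglial and 2 of 5 endothelial genes, and no gene of these lists was lower. Of all tested genes, 5.61% rose. Among the other lists, 1 of 6 interneuron genes, Gad2, was higher and 1 of 3 mossy cell genes, Csf2rb2, was lower. Summed oligodendrocyte markers were 1097 and 1993 CPM in WT, 2967 and 2237 in F1 and 1533 and 2894 in F2, so the groups overlapped. Summed astrocyte markers were 1215 and 1274 CPM in WT, 1462 and 1793 in F1 and 1989 and 1620 in F2, so all F1 and F2 libraries lay above WT. Microglial markers summed to 108 and 110 CPM in WT against 128 to 165 in F1 and F2, and endothelial markers to 77.7 and 79.8 against 88.6 to 108. No marker of any list was at 0 in these libraries. The part of these other cells in the Zfp results was not tested.

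Zfp238, also called RP58, a transcriptional repressor needed for neuron formation in the cortex, was by far the highest member, with a mean of 21043.5 counts. Its level was 647 and 766 CPM in WT, 655 and 721 in F1 and 719 and 786 in F2, and the groups overlapped. Zfp365, which binds the scaffold protein DISC1, followed with 276 and 267 CPM in WT, 274 and 277 in F1 and 342 and 309 in F2, and Zfp706, a small protein with a single finger, with 268 and 270, 305 and 289, and 282 and 270. Neither passed the test in any comparison. Per kilobase of exon, the mean over all libraries was 140 CPM for Zfp238, 63.6 for Zfp706 and 55.9 for Zfp365, against a median of 5.6 over the 201 members. The next on this scale, Zfp523 and Zfp207, had 25.1 and 24.3 CPM per kilobase. The lowest value was 1.24. Most members thus lay far under these few abundant ones.

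Of the 201 members, 24 fell and 4 rose in F1 and F2 together against WT, at an adjusted p (q) under 0.01 in the exact test of edgeR with 4 libraries against 2. The share that fell was 11.9%, close to the 11.4% of all 17421 tested genes and the 10.5% of the 10030 genes averaging 300 counts or more. The share that rose was 1.99%, beside 5.61% and 7.63% in those sets. The median log2 fold change over the members was 0.01, as it was over all tested genes, and 0.05 over genes with that mean. An unadjusted p under 0.05 was found for 65 members, 32.3%, beside 37.0% of all tested genes and 39.1% of genes averaging 300 counts or more. Fewer members passed without WT replicate 1, and likewise without WT replicate 2. Each of these fits leaves 1 WT library, and the share of all tested genes that passed in them is not given here.

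Against WT, 20 members fell and 1 rose in F1, and 20 fell and 5 rose in F2. The gene that rose in F1 was Zfp719, and those that rose in F2 were Zfp871, Zfp748, Zfp251, Zfp26 and Zfp498, of which Zfp498 was chosen after its values were seen. The share that fell was 9.95% in each, beside 8.54% of all tested genes in F1 and 8.1% in F2, and 8.24% and 8.42% of genes averaging 300 counts or more. The share that rose was 0.498% in F1 and 2.49% in F2, beside 3.77% and 3.86% of all tested genes and 5.12% and 5.05% of genes with that mean. Both comparisons use the same WT libraries. Without WT replicate 1, fewer members passed in F1 and in F2. The same held in F1 without F1 replicate 2, and in F2 without either F2 library. Each of these fits leaves 1 library in a group, and the share of all tested genes that passed in them is not given here.

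**Figure D1:**
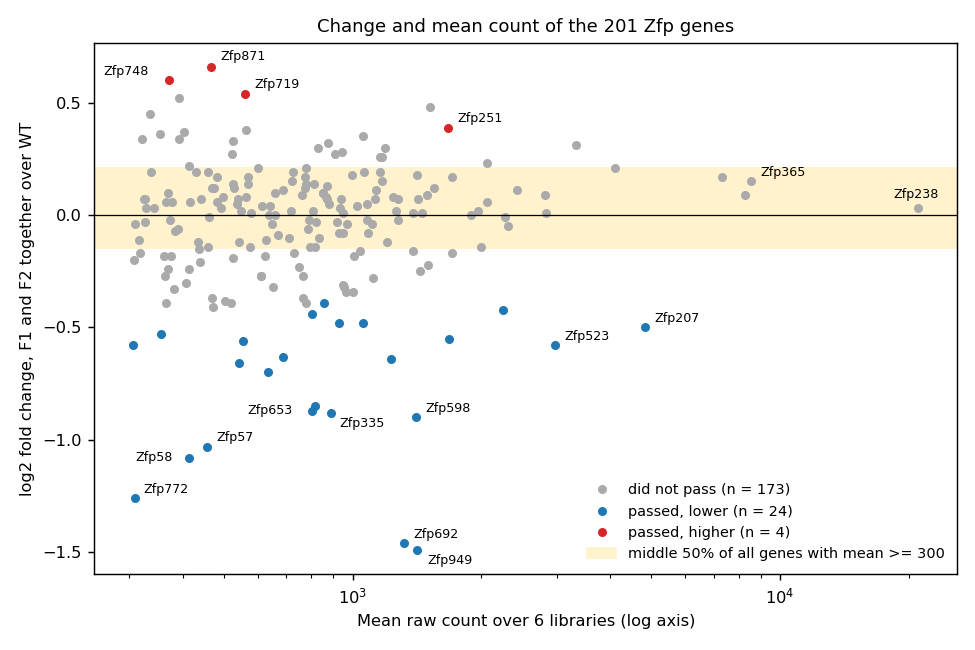
Mean raw count over the 6 libraries (log axis) against the log2 fold change of F1 and F2 together over WT, one point for each of the 201 Zfp genes, with the middle 50% of all genes of that mean shaded. The 24 genes that fell reach −1.49 and the 4 that rose reach 0.66, while the abundant Zfp238 and Zfp365 lie near 0.

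All 4 F1 and F2 libraries lay below both WT libraries for 56 members, 27.9%, beside 20.3% of all genes averaging 300 counts or more. They lay above both for 31 members, 15.4%, beside 27.1%. In the other 114 the groups overlapped. The 24 genes that fell and the 4 that rose were all among those without overlap. Their log2 fold changes ran from −1.49 to −0.39 and from 0.39 to 0.66, with standard errors between 0.10 and 0.17 for the genes that fell.

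**Figure D2:**
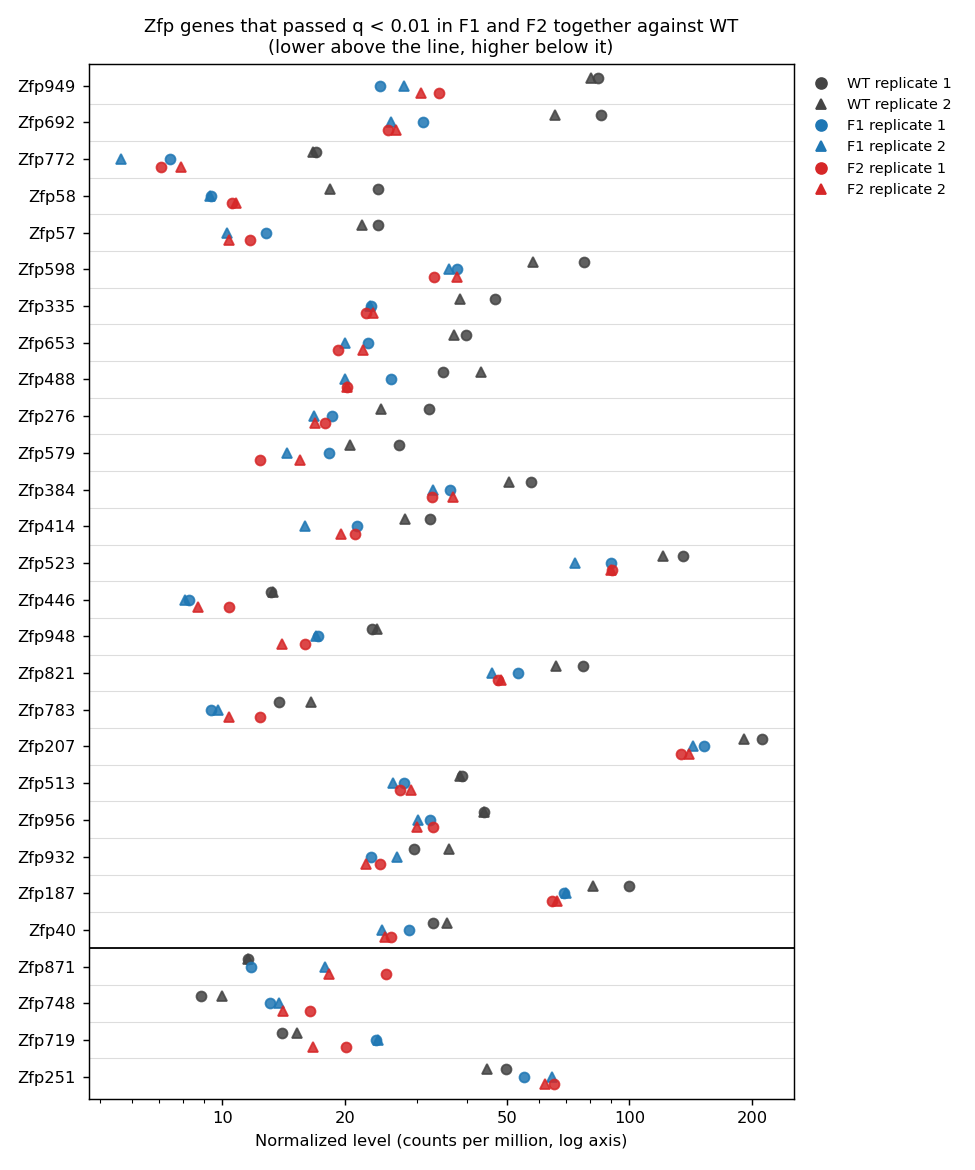
Normalized level in CPM (log axis) of the 28 Zfp genes that passed in F1 and F2 together against WT, one point per library, circles for replicate 1 and triangles for replicate 2. The 24 genes above the line have both WT libraries to the right of all F1 and F2 libraries, and the 4 below it to the left, where F1 replicate 1 of Zfp871 at 11.8 CPM almost touches WT at 11.6.

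Zfp949, a KRAB-type gene with 11 fingers (chr9:88442858-88465924), fell most. Its level was 83.8 and 80.5 CPM in WT, 24.4 and 27.9 in F1 and 34.0 and 30.7 in F2. The F1 and F2 libraries all lay far under WT, with F1 the lowest. The log2 fold change against WT was −1.65 ± 0.13 (SE, q = 2.26e-33) in F1 and −1.34 ± 0.13 (q = 7.82e-22) in F2. Between F2 and F1 the gene did not pass the test. Zfp692 (chr11:58120571-58128129) has no KRAB motif and 5 fingers, and its human counterpart is described as a DNA-binding protein that responds to an activator of the energy-sensing kinase AMPK. It was at 85.3 and 65.6 CPM in WT, 31.2 and 26.0 in F1 and 25.5 and 26.7 in F2. The WT libraries differed more from each other than those of F1 or F2, yet both were over all the others. Its log2 fold change was −1.40 ± 0.15 (q = 3.55e-17) in F1 and −1.53 ± 0.15 (q = 9.05e-20) in F2.

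Zfp772 and Zfp58 fell by slightly more than 1 on the log2 scale. Zfp772 (chr7:7154833-7162506), of the KRAB type, was at 17 and 16.7 CPM in WT, 7.46 and 5.63 in F1 and 7.07 and 7.94 in F2. The change was −1.26 ± 0.17 (q = 4.34e-13) in F1 and F2 together. Zfp58 (chr13:67591103-67627087), with 14 fingers, was at 24.1 and 18.4 CPM in WT, 9.41 and 9.36 in F1 and 10.6 and 10.8 in F2, a change of −1.08 ± 0.16 (q = 7.07e-11). Part of its exon sequence, 8.2%, is shared with another gene. In both genes all F1 and F2 libraries were well below WT.

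Zfp57 (chr17:37138108-37147580) is a KRAB protein that binds methylated DNA at imprinted regions and keeps their methylation in the early embryo. It was at 24.1 and 22.0 CPM in WT, 12.8 and 10.3 in F1 and 11.7 and 10.4 in F2. The log2 fold change was −1.0 ± 0.17 (q = 4.35e-07) in F1 and −1.06 ± 0.17 (q = 1e-07) in F2. Both generations were thus near an equal level below WT, and the difference between them was −0.06 in F2 against F1. Zfp57 transcripts remained detected in every library, and the protein was not measured. Without any one library the combined change stayed between −1.10 and −0.96 and passed.

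Zfp598 and Zfp335, which are known for other functions than silencing, also fell. Zfp598 (chr17:24806697-24818960) is a ubiquitin ligase that marks collided ribosomes. It was at 77.2 and 57.9 CPM in WT, 37.8 and 36.1 in F1 and 33.2 and 37.8 in F2, a change of −0.90 ± 0.13 (q = 6.39e-11). Zfp335 (chr2:164717382-164737257), part of a nuclear receptor coactivator complex and needed by neural progenitors, was at 46.8 and 38.3 CPM in WT, 23.2 and 23.1 in F1 and 22.5 and 23.4 in F2. The change was −0.88 ± 0.13 (q = 4.48e-11). For this gene 28.3% of the exon sequence overlaps another gene, and reads within the overlap were not counted.

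Zfp653, Zfp488 and Zfp276 completed the 10 largest falls. Zfp653 (chr9:21859904-21875789) was at 39.6 and 37.1 CPM in WT, 22.8 and 20 in F1 and 19.2 and 22.2 in F2, a change of −0.87 ± 0.13 (q = 1.62e-10). Zfp488 (chr14:34780256-34791950) promotes oligodendrocyte differentiation. It was at 34.9 and 43.1 CPM in WT, 25.9 and 20 in F1 and 20.3 and 20.2 in F2, a change of −0.85 ± 0.14 (q = 3.7e-08). This fall stood beside oligodendrocyte markers of which 3 of 8 rose and none fell. Zfp276 (chr8:125778095-125793645) was at 32.2 and 24.6 CPM in WT, 18.6 and 16.8 in F1 and 17.9 and 16.9 in F2, a change of −0.70 ± 0.14 (q = 1.56e-05). Of the 10 genes, only Zfp276 failed to pass when a library was left out, with −0.49 (q = 0.0365) without WT replicate 1.

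The other 14 genes that fell had changes from −0.66 to −0.39. In order of size they were Zfp579, Zfp384, Zfp414, Zfp446, Zfp523, Zfp948, Zfp821, Zfp783, Zfp207, Zfp513, Zfp956, Zfp932, Zfp187 and Zfp40. Zfp384, which binds promoters of matrix and bone genes, was at 57.3 and 50.7 CPM in WT, 36.2 and 33.0 in F1 and 32.8 and 36.8 in F2, a change of −0.64 ± 0.11 (q = 4.51e-07). Zfp207, a spindle and kinetochore protein, was the most abundant gene that fell. It was at 211 and 191 CPM in WT, 152 and 143 in F1 and 134 and 140 in F2, a change of −0.50 ± 0.10 (q = 9.03e-06), which did not pass without WT replicate 1, with −0.43 (q = 0.0103). Zfp783 is annotated as a transcript without a protein, and 56.4% of its exon sequence overlaps another gene, as does 29.2% in Zfp414 and 23.6% in Zfp187. Of the 24 genes that fell, 11 passed whichever library was left out.

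The 4 genes that rose were Zfp871, Zfp748, Zfp719 and Zfp251. Zfp748 (chr13:67639580-67654065) was at 8.88 and 10 CPM in WT, 13.1 and 13.8 in F1 and 16.4 and 14.1 in F2, a change of 0.60 ± 0.15 (q = 0.00121). It lies 12.5 kb from Zfp58, which fell. Zfp719 (chr7:50834980-50848605) was at 14 and 15.3 CPM in WT, 23.9 and 24.1 in F1 and 20.1 and 16.7 in F2. Its change was 0.71 ± 0.16 (q = 0.000152) in F1 and 0.33 ± 0.16 (q = 0.137) in F2, and 0.54 ± 0.14 (q = 0.00147) together. The difference between F2 and F1 did not pass. Zfp251 (chr15:76682578-76701865), the most abundant of the 4, was at 49.8 and 44.6 CPM in WT, 55.2 and 64.7 in F1 and 65.2 and 61.9 in F2, a change of 0.39 ± 0.11 (q = 0.00461).

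Zfp871 (chr17:32908181-32925232), of the KRAB type with 15 fingers, was at 11.6 CPM in both WT libraries, 11.8 and 17.9 in F1 and 25.2 and 18.3 in F2. F1 replicate 1 was at the WT level and F2 replicate 1 was the highest. The change was 0.36 ± 0.22 (q = 0.249) in F1 and 0.91 ± 0.22 (q = 0.000601) in F2, and 0.66 ± 0.19 (q = 0.00509) together. None of the 4 genes that rose passed whichever library was left out. Without WT replicate 1 the q-values were 0.0885 for Zfp871, 0.0869 for Zfp748, 0.0879 for Zfp719 and 0.0209 for Zfp251, and without WT replicate 2 they were 0.0728, 0.0111, 0.0165 and 0.144. Without F2 replicate 1, q was 0.0812 for Zfp871, 0.0167 for Zfp748 and 0.0296 for Zfp251, and without F2 replicate 2 it was 0.0178 for Zfp251.

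The role list holds 36 Zfp genes with a well-described function, of which 28 were members. Of these, 5 fell, namely Zfp57, Zfp598, Zfp335, Zfp384 and Zfp207, and none rose. The 5 are 17.9% of the 28, where 11.4% of all tested genes fell and 5.61% rose. The list was chosen with earlier results of these data known, so this share is a description only. The other 23 had log2 fold changes between −0.22 and 0.52 in F1 and F2 together. Zfp318, which is needed for the IgD transcript in B cells, was the lowest of these, at 55.9 CPM in both WT libraries, 45.9 and 47.8 in F1 and 50.1 and 47.8 in F2, with −0.22 (q = 0.0871). Zfp106, an RNA-binding protein needed by motor neurons, was at 234 and 223 CPM in WT, 229 and 286 in F1 and 265 and 248 in F2, with 0.17 (q = 0.279), and 30.1% of its exon sequence overlaps another gene. Zfp91, a ubiquitin ligase of the noncanonical NF-kappaB pathway, was at 127 and 126 CPM in WT, 142 and 155 in F1 and 146 and 141 in F2, with 0.21 (q = 0.114).

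Zfp148 and Zfp281 are related factors that bind GC-rich promoters. Zfp148 was at 96.5 and 98.5 CPM in WT, 104 and 124 in F1 and 138 and 118 in F2, with 0.31 (q = 0.0304), and all F1 and F2 libraries were over WT. Zfp281 was at 51.7 and 55.6, 58.4 and 59.0, and 64.7 and 58.7 CPM, with 0.17 (q = 0.246). Zfp644, Zfp592 and Zfp609, which are partners of chromatin enzymes, readers or cohesin loading, had 0.06, 0.01 and −0.01. Zfp687, found with Zfp592, was at 25.8 and 28.8 CPM in WT, 26.4 and 34.4 in F1 and 35.5 and 35.0 in F2, with 0.27 (q = 0.138).

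Besides Zfp335, which fell, the list holds other factors with roles in neural development, and those given here did not pass in F1 and F2 together. Zfp462 was at 24.2 and 24.7 CPM in WT, 33.3 and 32.2 in F1 and 26.2 and 28.2 in F2, with 0.42 (q = 0.014) in F1 and 0.16 (q = 0.466) in F2. Its F1 libraries were the highest. Zfp423, a cofactor in cerebellar and olfactory development with 27 fingers, had 0.07 (q = 0.77), and Zfp536, which represses neuronal differentiation, 0.17 (q = 0.412). Zfp191, needed for myelination, was at 47.8 and 51.6 CPM in WT, 51.4 and 53.3 in F1 and 59.2 and 52.7 in F2, with 0.12 (q = 0.435). Zfp161, Zfp110, Zfp292, Zfp516, Zfp622 and Zfp652 had changes between −0.15 and 0.18.

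Between F2 and F1 no member passed the edgeR test, where 0.74% of all tested genes did. An unadjusted p under 0.05 was found for 11 members, 5.47%, beside 8.64% of all tested genes. The quasi-likelihood test and DESeq2 called 0, and only Zfp871 passed without F1 replicate 2. The 3 smallest p-values belonged to Zfp46, Zfp367 and Zfp362. Zfp46 was at 43.6 and 44.3 CPM in F1 and 70.7 and 50.5 in F2, a difference of 0.46 (q = 0.234), with WT at 42.1 and 56.3. Zfp367 was at 14.7 and 15 CPM in F1 and 10.1 and 11.7 in F2, a difference of −0.45 (q = 0.261), with WT at 12.1 and 12.7. Zfp362 was at 26.1 and 25.9 CPM in F1 and 30.1 and 37.5 in F2, a difference of 0.38 (q = 0.263). It fell in F1 against WT, which was at 37.1 and 37.5 CPM, with −0.52 (q = 0.00349), and had −0.14 (q = 0.535) in F2.

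Replicates of a group were close in most members. The absolute log2 ratio of replicate 1 over replicate 2 had a median of 0.10 in WT, 0.12 in F1 and 0.11 in F2, beside 0.12, 0.13 and 0.11 over all genes averaging 300 counts or more. A difference of more than 1.5-fold between replicates was found for 2 members in WT, Zfp605 and Zfp867, 3 in F1, Zfp445, Zfp507 and Zfp871, and 1 in F2, Zfp26. The genes of this paragraph other than Zfp871 and Zfp26 were chosen after their values were seen. The largest was in Zfp605, at 18.7 CPM in WT replicate 1 and 64.1 in WT replicate 2, while the F1 libraries were at 55.0 and 62.0 and the F2 libraries at 56.3 and 58.1. A single WT library was thus low, and the gene did not pass (q = 0.273). Zfp445, a KRAB protein that also takes part in imprint maintenance, was at 30.6 CPM in F1 replicate 1 and at 41.9 to 49.4 in the other 5 libraries.

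Some members were lowest in WT and F1 replicate 1 and highest in F2 replicate 1, a pattern picked after the values were seen. How many members or other genes share it was not counted. Zfp26 was at 10.2 and 10.7 CPM in WT, 9.84 and 14.3 in F1 and 21.5 and 14.3 in F2. Zfp507 was at 14.9 and 15.7 in WT, 13.4 and 21.3 in F1 and 23.7 and 18.8 in F2, and Zfp498 at 9.12 and 9.36, 9.67 and 11.9, and 16.1 and 12.8. Zfp871 had this pattern as well. Another gene overlaps 18.6% of the exon sequence of Zfp26 and 26.8% of that of Zfp507. Zfp26 and Zfp498 passed in F2 against WT, with q = 0.00702 and 0.0081, but not in F1 and F2 together. The granule cell, astrocyte, microglial and endothelial marker sums were highest in F2 replicate 1 too. Granule cell markers were at 1967 CPM there and lowest in F1 replicate 1, at 1276, with WT at 1531 and 1582. Astrocyte markers were at 1989 CPM there, but F1 replicate 1, at 1462, was over WT at 1215 and 1274. Microglial markers reached 165 CPM in F2 replicate 1 and endothelial markers 108, with 106 in F2 replicate 2. In F1 replicate 1 they were at 128 and 88.6 CPM, also over WT. The oligodendrocyte, ventral dentate, CA pyramidal, mossy cell and interneuron sums were highest in other libraries. Oligodendrocyte markers were at 1533 CPM in F2 replicate 1 and 2967 in F1 replicate 1. The part of these cells in the pattern was not tested.

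**Figure D3:**
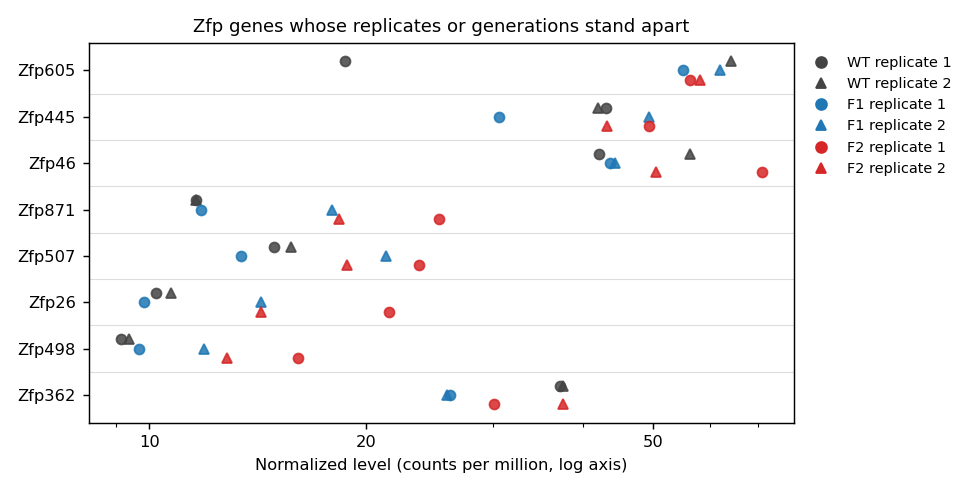
Normalized level in CPM (log axis) of 8 Zfp genes, one point per library, circles for replicate 1 and triangles for replicate 2. In Zfp605 WT replicate 1 at 18.7 CPM is far from the other 5 libraries, Zfp445 has F1 replicate 1 alone at 30.6, and Zfp871, Zfp507, Zfp26 and Zfp498 are highest in F2 replicate 1.

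The members differ in the build of their proteins. In the longest protein of each gene in GENCODE M1, the members had a median of 9 C2H2 patterns and at most 36. No pattern was found in 4 members, Zfp259, Zfp330, Zfp365 and the gene model of Zfp748. A KRAB motif, searched as a short pattern, was found in 62 members, and Zfp783 has no protein. Members without this pattern may still carry a KRAB domain. Of the 62, 5 fell, namely Zfp949, Zfp772, Zfp57, Zfp948 and Zfp932, and 3 rose, namely Zfp871, Zfp748 and Zfp719, and of the 138 without the motif, 18 fell and 1 rose. The shares that fell were 8.06% and 13%, and those that rose 4.84% and 0.725%, beside 11.4% and 5.61% of all tested genes. Of 34 members with 1 to 4 fingers, 7 fell and none rose, while of 65 with 5 to 9 fingers 10 fell and none rose. Of 64 with 10 to 14 fingers, 3 fell and 2 rose, and of 33 with at least 15, 3 fell and 1 rose. From few fingers to many, the shares that fell were 20.6%, 15.4%, 4.69% and 9.09%, beside the same 11.4%. Zfp598, Zfp207, Zfp821 and Zfp488 fell and had few fingers and no KRAB motif, while Zfp58, Zfp335 and Zfp40 fell with 14, 13 and 16 fingers. The share that fell without the motif, 13%, was close to that of all tested genes. Of the 11 members with a SCAN motif, which pairs proteins with each other, 2 fell, Zfp446 and Zfp187, and none rose. The share that fell was 18.2%, beside 11.4% of all tested genes, and rests on few genes.

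**Figure D4:**
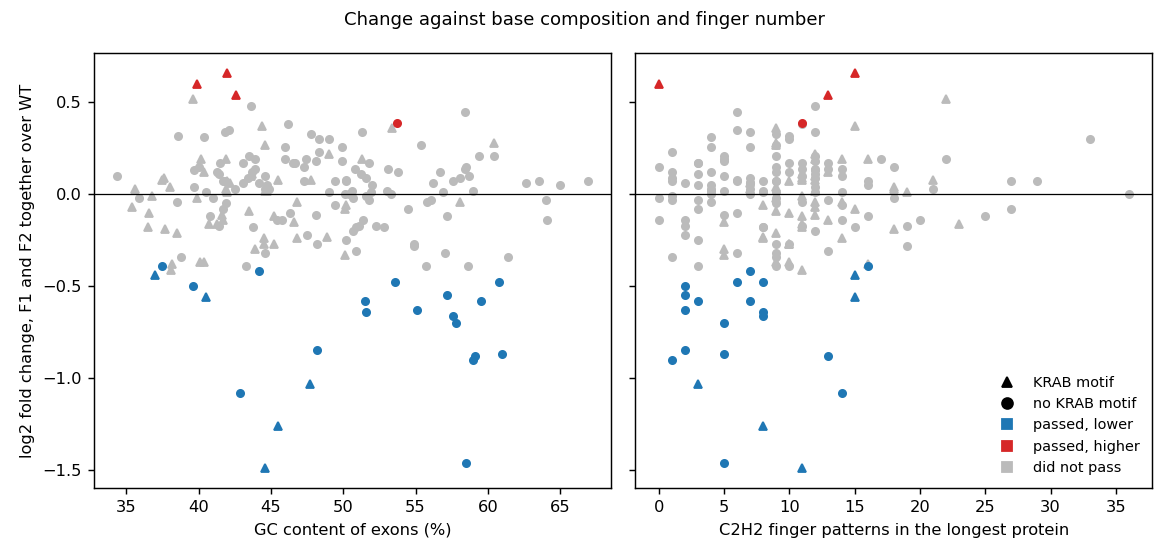
Log2 fold change of F1 and F2 together over WT against the GC content of the exons in percent (left) and the number of C2H2 patterns in the longest protein (right), triangles for genes with a KRAB motif and circles for genes without. The genes that fell run from 37.0% to 61.0% GC and have at most 16 patterns, and 3 of the 4 that rose have the KRAB motif.

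Base composition also differed among members. The median GC content of the exons was 46.8% over the members, 51.5% over those that fell and 49.8% over all tested genes. Of the 66 members with the highest GC content 13 fell and 1 rose, of the 68 with the lowest 5 fell and 3 rose, and of the 67 between them 6 fell and none rose. The shares that fell were 19.7%, 7.35% and 8.96%, and those that rose 1.52%, 4.41% and 0%, beside 11.4% and 5.61% of all tested genes. Across members, Spearman's rho of the log2 fold change was −0.07 with GC content, 0.17 with exon length and 0.12 with the number of patterns (n = 201, 201 and 200, genes of the same libraries). With GC content and exon length corrected for in the quasi-likelihood fit, 20 members fell and 4 rose in F1 and F2 together. Of the 24 genes that fell, 20 still did so, and the correction left Zfp949 at −1.48 and Zfp692 at −1.36.

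Zfp genes lie in clusters, and 79 members had another member within 100 kb. Of these 9 fell and 1 rose, against 15 and 3 of the other 122. The shares that fell were 11.4% and 12.3%, both close to the 11.4% of all tested genes. Those that rose were 1.27% and 2.46%, beside 5.61%. Chromosome 7 held 49 members, of which Zfp772, Zfp579 and Zfp446 fell, or 6.12%. Chromosome 17 held 23, of which 6 fell, or 26.1%, and 1 rose. The median log2 fold change was −0.18 on chromosome 17 and 0.03 on chromosome 7. Of all tested genes, 15.2% fell on chromosome 17 and 13.1% on chromosome 7, with medians of −0.05 and −0.02. The 6 genes on chromosome 17 were Zfp57, Zfp598, Zfp523, Zfp414, Zfp948 and Zfp40. Zfp948 was 119 kb from the nearest member, Zfp760, and the others at least 234 kb from theirs. Zfp760, chosen after its value was seen, had −0.38 (q = 0.0268).

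Of the 201 members, 168 matched a promoter in RefSeq (GRCm38.p6), taken as 250 bases before to 50 bases after the start. Motifs were searched on both strands by their letters. The box CCAAT was in 42.3% of the members' promoters and in 37.9% of all 27025 promoters. The GC box GGGCGG was in 49.4% against 35.9%, and CCGGAAG, a core that ETS factors bind, in 20.8% against 9.12%. Among the 21 promoters of genes that fell, 8 held CCAAT, 8 held GGGCGG and 2 held CCGGAAG. The median GC content was 56.7% for the members' promoters, 58.3% for those that fell and 52.7% for all. The set of all promoters includes those of genes with few or no reads, while the members were selected on their count. These shares therefore do not compare genes of equal count, and the part of the count limit in them was not tested.

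Zfp genes under the limit and other zinc finger names gave the comparison for the members. Of the 130 tested Zfp genes under the limit, 6 fell and 5 rose in F1 and F2 together, with a median log2 fold change of 0.04. Of 76 tested genes named Zbtb, Zkscan, Zscan or Zfp with letters after the digits, 4 fell and 3 rose, with a median of 0.09. The shares that fell, 4.62% and 5.26%, stood beside 11.9% of the members and 11.4% of all tested genes. The members' share was thus close to that of all tested genes. The shares that rose were 3.85% and 3.95%, beside 1.99% of the members and 5.61% of all tested genes. Zfp genes under the limit had lower counts by selection, so their shares and those of the members do not compare genes of equal count. With a limit of 100 counts 286 genes were members, of which 28 fell and 8 rose, and with 600 counts 126, of which 17 fell and 1 rose. The shares of all genes at these other limits are not given, so these counts are a description only.

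The partners through which KRAB proteins act were given by a list of 41 genes, of which 39 were tested. Of these, 4 fell and none rose in F1 and F2 together, and the median log2 fold change was −0.06. The share that fell, 10.3%, is close to the 11.4% of all tested genes. Trim28, the scaffold that KRAB domains bind, was at 182 and 150 CPM in WT, 158 and 157 in F1 and 152 and 144 in F2, with −0.12 ± 0.11 (q = 0.435), and the groups overlapped. Setdb1, the histone methyltransferase it recruits, was at 87.1 and 71.3 CPM in WT, 49.7 and 49.1 in F1 and 49.4 and 48.6 in F2, a change of −0.69 ± 0.11 (q = 1.18e-08). The other genes that fell were the DNA methyltransferase Dnmt3a with −0.38 (q = 0.00121), Morc2a, which acts with the HUSH silencing complex, with −0.40 (q = 0.00169), and the histone methyltransferase Ehmt2 with −0.31 (q = 0.0073). Dnmt3a was at 93.8 and 86.5 CPM in WT, 68.5 and 65.2 in F1 and 73.0 and 70.7 in F2, with no overlap.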

How the data were processed

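RNA-Seq libraries of the microdissected ventral granule cell layer were analysed. The authors sequenced single-end reads of 50 bp, aligned them to mm9 with TopHat, counted them on exons with HTSeq (intersection-strict), and deposited the raw counts of each gene, which are not normalized. Reads that match several places or lie within several genes are not in these counts, so near-identical zinc finger copies are undercounted. Rows that name no gene were left out. The bisulfite samples were not analysed here.

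Libraries were grouped by the labels. Genes with few counts were removed by filterByExpr, libraries were scaled by TMM, and groups were compared in edgeR 4.0.16 (R 4.3.3) by its exact test, with tagwise dispersion over all 3 groups, for F1, F2 and both together against WT and F2 against F1. P-values were adjusted by Benjamini-Hochberg over 17421 genes, and q under 0.01 was the threshold. Standard errors follow from the mean counts and dispersion. The biological coefficient of variation was 10.6%, so the number of libraries limits the precision more than depth. Gene counts summed to 26358165 in the shallowest library and 33727936 in the deepest. Alternatives were the quasi-likelihood test, a block for the replicate number, DESeq2 (1.42.0), other scaling, filter and threshold, GC and length correction, and each library left out.

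The members and lists were chosen with earlier results of these data known. Genes named are the 3 highest members, up to 10 largest falls and rises of F1 and F2 together, the 3 smallest p-values of F2 against F1, members of the role list, members at the count limit, and of the KRAB partners Trim28, Setdb1 and those that passed. Lists of markers covered granule, ventral dentate, oligodendrocyte, astrocyte, microglial, endothelial, CA pyramidal, mossy and interneuron genes. Of the ventral dentate and CA pyramidal lists no gene passed in F1 and F2 together, and 1 of 3 mossy cell genes was lower and 1 of 6 interneuron genes higher. Positions, exon length, GC content and proteins come from GENCODE M1 on mm9, which held all 201 symbols. A finger was counted as cysteines 2 to 4 residues apart, 12 residues, and histidines 3 to 5 residues apart, and KRAB and SCAN motifs were short patterns. The procedure was tested on simulated data. Python 3.11.15 with pandas 2.3.3 and matplotlib 3.10.9 made the tables and figures, and SciPy 1.17.1 the rank correlations.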

Additional observations from a re-analysis of the deposited data

How the results depend on the processing

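Counts of members that passed moved with the test, the threshold and the library left out. In F1 against WT, 21 members passed, 13 with the quasi-likelihood test, 13 with GC and length correction and 11 with that correction and the replicate block. In F2 against WT, 25 passed, 14 with the quasi-likelihood test, 12 with its replicate block, 11 with the correction and block, and 38 at a threshold of 0.05. In F1 and F2 together, 28 passed, 18 with the quasi-likelihood replicate block, 16 with the correction and block, and 47 at 0.05. DESeq2, other scalings, no filter and dispersion from the groups compared changed none of these counts by more than 1.5 times. Of the 24 genes that fell and the 4 that rose in F1 and F2 together, 21 and 1 passed in the quasi-likelihood test. No named gene reversed in any alternative. Leaving out a library gave 11 to 21 members in F1, 9 to 30 in F2, 0 to 1 in F2 against F1 and 13 to 34 in F1 and F2 together. The cause of these shifts was not tested, other than that fewer libraries were compared.

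The replicate numbers gave no sign of pairing the samples. The correlation of the replicate differences was −0.0269 for WT with F1, −0.083 for WT with F2 and −0.182 for F1 with F2. The replicate block may thus join libraries that share only a number. The labels name no batches, and shared handling of libraries was not tested. With the F2 numbers crossed in the block, a pairing chosen after seeing the data, 3 members rose and 23 fell in F1 and F2 together. Replicates were distinct libraries, with a chi-square per degree of freedom between 19.2 and 24.9.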
